A study of Mus musculus with 7 samples.

Results

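Pericytes are the mural cells that wrap capillaries and small venules. Of 7 genes commonly used to mark them (Rgs5, Rgs4, Cspg4, Mcam, Kcnj8, Abcc9 and Higd1b), 6 were among the 12771 genes of the count table, and Higd1b was not analysed here. The rule uses gene names and no measured value. The samples are cancer-associated fibroblasts (CAFs) from pancreatic tumors that grew in male C57BL/6 J mice, injected at 8 weeks of age, 2 to 3 weeks after KPC cells, a mouse pancreatic cancer line, were placed in the pancreas. The KPC cells carried either a non-targeting short hairpin RNA (shControl, 3 libraries, replicates 1, 2 and 4) or a hairpin that silences Brca2 (shBrca2, 4 libraries, replicates 1 to 4), and the sorted host fibroblasts carried neither. Sorting kept live cells that carried podoplanin (PDPN) and lacked EpCAM, CD31 and CD45, with no gate on a pericyte marker. As the study describes its groups, there was a mouse for each library.

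Pericytes share a basement membrane with endothelial cells, are recruited to new vessels by PDGF-B acting on the receptor PDGFRβ, and control capillary tone and vessel stability. In pancreatic tumors the vessels are sparse. No single gene defines a pericyte. The members fall into regulators of G-protein signaling (Rgs5 and Rgs4), surface molecules (Cspg4 and Mcam), the subunits of a vascular potassium channel that closes when ATP is high (Kcnj8 and Abcc9), and a mitochondrial inner membrane protein (Higd1b). Several of them are also made by other cells, for example Cspg4 by glial precursors and Mcam by endothelium.

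Rgs4 was the 1 member of 6 that passed the test, and it was lower in shBrca2 CAFs. The other 5 members did not pass: 3 of them had fold changes above 0 and 2 below. No member was called higher. A gene was called when the DESeq2 adjusted p was under 0.1, the absolute log2 fold change over 0.5 and the mean normalized count over 5. Over all 12768 genes tested, 9.04% were called in either direction, 5.27% lower and 3.77% higher. The median log2 fold change of the 6 members was 0.06, against 0.01 for all genes tested. The normalized counts of the groups overlapped for all 6 members, where 17.1% of all listed genes had groups that did not overlap. With edgeR's quasi-likelihood test no member was called in either direction. Summed over the members, CPM (raw counts scaled to the library total) came to 119, 128 and 117 in the shControl libraries and 132, 103, 108 and 122 in the shBrca2 libraries. These sums also overlapped. Here and below, values by library follow the order of replicates 1, 2 and 4 for shControl and 1 to 4 for shBrca2. In bulk RNA, fewer cells of a type and less RNA per cell cannot be told apart.

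Library depth was 1898679 to 5990579 counts, lowest in shBrca2 replicate 3 and highest in shBrca2 replicate 2. Normalized counts are raw counts divided by DESeq2's size factor of the library. They come from the 3' end of transcripts and were not divided by gene length, so levels are compared between libraries and not between genes. Fold changes are log2 values of shBrca2 over shControl with their standard error (SE).

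**Figure D1:**
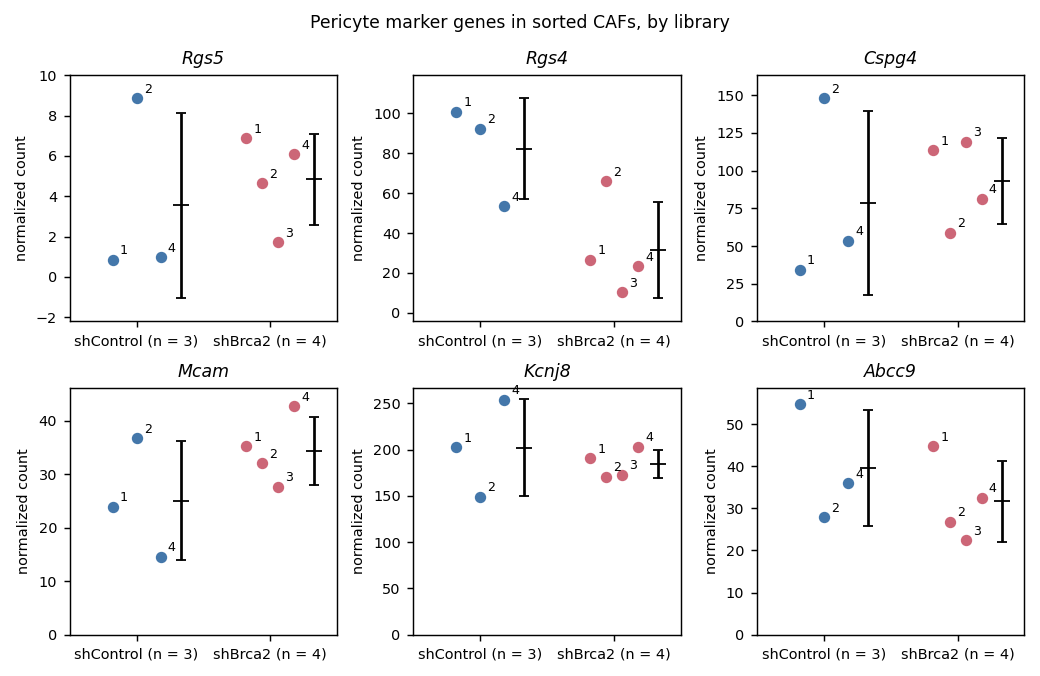
Normalized counts (vertical axis, a scale of its own for each gene) of the 6 pericyte marker genes in 3 shControl and 4 shBrca2 libraries; each point is a library, labelled with its replicate number, and bars give the mean and SD of the group. Groups overlapped in all 6 panels, with Rgs4 lower in shBrca2 except for replicate 2 at 65.9, and shControl replicate 2 stood highest for Rgs5 and Cspg4 and lowest for Kcnj8.

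Rgs4 and Rgs5 encode proteins that speed the shutdown of G-protein signals, and both lie on the same stretch of chromosome 1. On GRCm38.p6, which corresponds to the mm10 build named in the submitters' processing notes, Rgs5 spans chr1:169655501-169695813 on the plus strand and Rgs4 spans chr1:169741477-169747642 on the minus strand. Their facing ends are 45.7 kb apart, with no RefSeq gene between them. The 250 bases before the start of each of these neighbours are shown. They were read from RefSeq (GRCm38.p6) 5' to 3' on the strand of the gene, chr1:169655251-169655500 for Rgs5 and chr1:169747643-169747892 for Rgs4.
Rgs5: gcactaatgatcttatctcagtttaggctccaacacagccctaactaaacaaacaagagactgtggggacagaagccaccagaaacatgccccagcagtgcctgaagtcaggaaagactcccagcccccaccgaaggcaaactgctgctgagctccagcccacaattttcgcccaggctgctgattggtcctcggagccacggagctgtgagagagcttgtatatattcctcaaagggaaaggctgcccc
Rgs4: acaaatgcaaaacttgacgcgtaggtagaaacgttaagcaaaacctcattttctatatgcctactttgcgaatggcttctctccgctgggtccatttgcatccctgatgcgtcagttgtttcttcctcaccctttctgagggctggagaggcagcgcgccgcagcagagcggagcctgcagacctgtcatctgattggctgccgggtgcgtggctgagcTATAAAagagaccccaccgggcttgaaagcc
The capitals mark TATAAA, which begins 31 bases before the start of Rgs4 and was not found in the windows of the other 5 members. Of 32851 promoter windows of 300 bases (250 before to 50 after the start), 13.6% hold TATAAA on either strand. CANNTG was found 5 times around Rgs4 and 1 time around Rgs5, and 72.3% of all windows hold it. The hypoxia response core ACGTG was in no member's window, against 19.6% of all windows. These matches are descriptions of letters and not binding sites.

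Rgs4 was measured at 101, 92.3 and 53.5 normalized counts in the shControl libraries and at 26.7, 65.9, 10.4 and 23.4 in the shBrca2 libraries. The shBrca2 libraries lay below the shControl libraries apart from shBrca2 replicate 2, which exceeded shControl replicate 4. Group means with SD were 82.2 ± 25.2 for shControl (n = 3) and 31.6 ± 23.9 for shBrca2 (n = 4), a level 2.51-fold lower by the fitted model. The log2 fold change was -1.33 with an SE of 0.46 (95% interval -2.24 to -0.42, DESeq2 adjusted p = 0.053). It rested on 419 raw counts in all, 6 of them in shBrca2 replicate 3 and 118 in shControl replicate 1.

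The direction of the Rgs4 difference held in all 13 alternative fits, with log2 fold changes from -1.97 to -1.06, and the call held in 6 of them. In edgeR's quasi-likelihood test Rgs4 had a log2 fold change of -1.25, with an adjusted p of 0.11. Of the 7 fits that each left out a library, the call held in 2. Leaving out shControl replicate 4 gave a DESeq2 adjusted p of 0.018, and leaving out shBrca2 replicate 2 one of 4.5e-05; these are the libraries nearest the other group. It was lost without shControl replicate 1 (adjusted p = 0.22), shControl replicate 2 (0.11), shBrca2 replicate 1 (0.15), shBrca2 replicate 3 (0.10) or shBrca2 replicate 4 (0.16).

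Rgs5, the gene most often used to find pericytes, had few counts in these sorted cells. The raw counts were 1, 7 and 1 in the shControl libraries and 8, 8, 1 and 6 in the shBrca2 libraries. Summed over the group, that is 0.850 CPM in shControl (exact Poisson 95% interval 0.389 to 1.61) and 1.56 in shBrca2 (0.992 to 2.35), where the intervals cover counting error only. They overlap. After scaling, Rgs5 was at 0.854, 8.86 and 0.973 normalized counts in shControl and at 6.88, 4.66, 1.73 and 6.10 in shBrca2. The highest of all 7 libraries was shControl replicate 2, and the lowest were the other two shControl libraries.

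The log2 fold change of Rgs5 was 0.59 with an SE of 0.93 (95% interval -1.23 to 2.41, DESeq2 adjusted p = 0.84). Its mean normalized count of 4.29 was under the minimum of 5, so it could not have been called. No difference was detectable at this depth, and the interval includes changes of more than a doubling up or down. Leaving out shControl replicate 2 moved the log2 fold change to 2.46, still with an adjusted p of 0.28.

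The rest of the RGS family gave no other call. Of 21 family genes listed, 10 were in the table, 0 were called higher and 1 lower, which was Rgs4. The median log2 fold change of the 10 was 0.14. In DESeq2, 2 of them had an unadjusted p under 0.05, as did 17.7% of all genes tested, and with edgeR none of the 10 was called. The 2 were Rgs4 and Rgs8. Rgs8 (named after its values were seen) had a log2 fold change of 1.70 with an SE of 0.84 (DESeq2 adjusted p = 0.26), from raw counts between 0 and 16. Rgs16, named likewise, averaged 519 ± 59.2 normalized counts over the shControl libraries (SD, n = 3) and 611 ± 80.9 over the shBrca2 libraries (SD, n = 4), which is 0.24 on the log2 scale (adjusted p = 0.54).

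Cspg4 encodes NG2, a proteoglycan that spans the membrane and binds matrix collagens and PDGF. It lies at chr9:56865104-56899870 on the plus strand. Its normalized counts were 34.2, 148 and 53.5 in the shControl libraries and 114, 58.9, 119 and 81.3 in the shBrca2 libraries. The shControl libraries held both the highest value, replicate 2, and the lowest, replicate 1, and enclosed all 4 shBrca2 libraries. The means were 78.6 ± 60.9 (SD, n = 3) and 93.2 ± 28.3 (SD, n = 4). The log2 fold change of 0.25, with an SE of 0.43, did not pass the test (95% interval -0.59 to 1.10, DESeq2 adjusted p = 0.86).

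The value for Cspg4 depended on single shControl libraries. Without shControl replicate 2 its log2 fold change was 1.08 and it was called higher (DESeq2 adjusted p = 0.043), in a fit that called 4.87% of 12521 genes higher and 5.55% lower. Without shControl replicate 1 the log2 fold change was -0.11. The spread among the 3 shControl libraries was thus larger than the difference between the groups.

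Mcam encodes the adhesion molecule CD146, found on pericytes, vascular smooth muscle and endothelium. It lies on the same chromosome as Cspg4, at chr9:44134658-44142727 on the plus strand. Normalized counts were 23.9, 36.7 and 14.6 in the shControl libraries and 35.3, 32.1, 27.6 and 42.7 in the shBrca2 libraries. The shBrca2 libraries lay above shControl replicates 1 and 4, and shControl replicate 2 lay above 3 of the 4 shBrca2 libraries. The means were 25.1 ± 11.1 (SD, n = 3) and 34.4 ± 6.34 (SD, n = 4), from 226 raw counts in all. The log2 fold change of 0.49, with an SE of 0.37, did not pass (95% interval -0.23 to 1.21, DESeq2 adjusted p = 0.55). It stayed between 0.21 and 0.84 over 13 alternative fits, the upper value without shControl replicate 2 (adjusted p = 0.26).

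Kcnj8 and Abcc9 encode the parts of one channel. Kcnj8 makes the pore, Kir6.1, and Abcc9 makes the sulfonylurea receptor SUR2 that senses nucleotides. When open, the channel holds mural cells at a negative potential and relaxes the vessel. The genes lie side by side on the minus strand of chromosome 6, Kcnj8 at chr6:142564837-142571614 and Abcc9 at chr6:142587862-142702766, with 16.2 kb and no RefSeq gene between them. Abcc9 overlaps 5330439B14Rik, which was not analysed here, and whether counting used strand was not given in the sources used here.

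Kcnj8 was at 202, 149 and 254 normalized counts in the shControl libraries and at 191, 171, 173 and 203 in the shBrca2 libraries. The 4 shBrca2 libraries sat within the shControl range, which ran from replicate 2 to replicate 4. The means were 202 ± 52.3 (SD, n = 3) and 184 ± 15.5 (SD, n = 4), a coefficient of variation of 25.9% in shControl and 8.41% in shBrca2. With 1431 raw counts it had the most reads of the members, and its log2 fold change of -0.13 had the smallest SE, 0.21 (95% interval -0.55 to 0.29, DESeq2 adjusted p = 0.84). A change of more than 0.55 in either direction on the log2 scale lies outside that interval. Leaving out shControl replicate 4 turned the sign, with a log2 fold change of 0.06.

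Abcc9 was at 54.7, 27.8 and 36.0 normalized counts in the shControl libraries and at 44.7, 26.8, 22.5 and 32.5 in the shBrca2 libraries. The highest library was shControl replicate 1 and the lowest shBrca2 replicate 3, and the ranges overlapped over most of their length. The means were 39.5 ± 13.8 (SD, n = 3) and 31.6 ± 9.67 (SD, n = 4). Its log2 fold change of -0.32, with an SE of 0.36, did not pass (95% interval -1.02 to 0.38, DESeq2 adjusted p = 0.73). The value was negative in all 13 alternatives, from -0.53 to -0.01. The raw ratio of Kcnj8 to Abcc9 within a library was 3.70, 5.36 and 7.05 in shControl and 4.27, 6.37, 7.69 and 6.25 in shBrca2, so the ranges overlapped here as well. Their partners in other tissues, Kcnj11 and Abcc8, were not analysed here.

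Higd1b, an inner membrane protein of the mitochondrion that is enriched in pericytes of several organs, was not analysed here. Its relatives Higd1a and Higd2a, named after their values were seen, were the 2 of 4 family genes present. Higd1a stood at 0.05 on the log2 scale (95% interval -0.50 to 0.61, DESeq2 adjusted p = 0.95). Higd2a stood at 0.12 (-0.24 to 0.48, adjusted p = 0.83).

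The members did not rise and fall together across the libraries. shControl replicate 2 was the highest library for Rgs5 and Cspg4 and the highest of the shControl group for Mcam, and was the lowest of all 7 for Kcnj8 and the lowest of its group for Abcc9. That library is 1 of 3 in its group. The genes whose log2(normalized count + 1) followed each member best over the 7 libraries also differed. For Rgs4 these were Lats2 (Pearson r = 0.99), Mrgprf (0.98) and Crispld2 (0.98). For Kcnj8 they were 2610524H06Rik (0.99), Kidins220 (0.94) and Eci1 (0.93), and for Abcc9 Asb8 (0.96), Klf7 (0.95) and Ehd4 (0.93). For Cspg4 they were Exoc3l4 (0.98), Vars (0.98) and Nans (0.97), and for Mcam Cthrc1 (0.98), Lzic (0.98) and Rpl8 (0.97). Each r rests on 7 points. Of the 6734 or 6735 genes compared with each member, 93 exceeded an r of 0.9 with Rgs4, 80 with Mcam, 79 with Cspg4, 12 with Kcnj8 and 6 with Abcc9. All points share library depth and the group difference. Rgs5 was left out of this for its low counts.

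**Figure D2:**
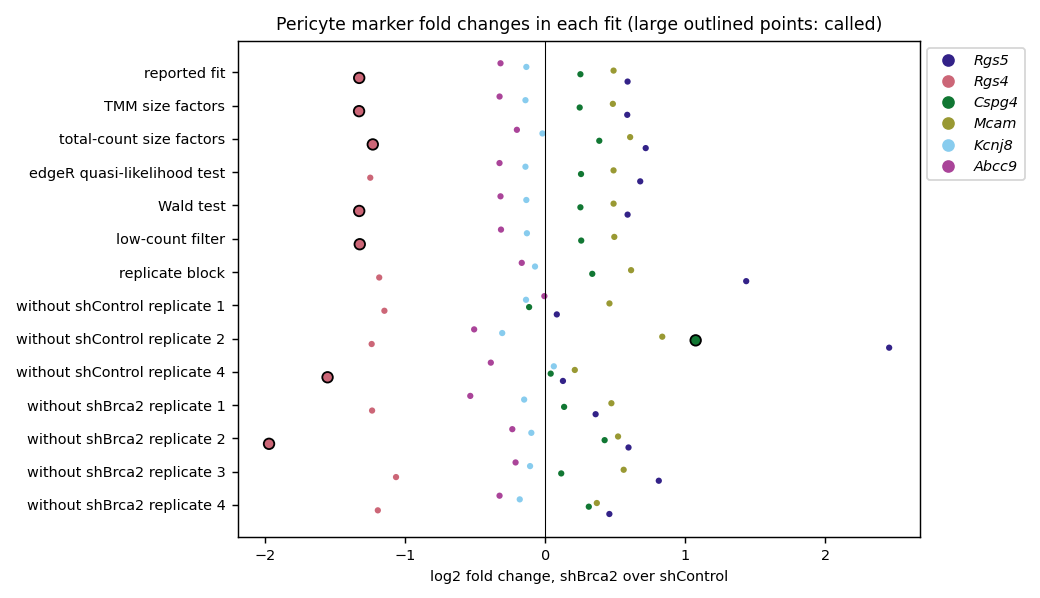
Log2 fold change of each pericyte marker gene, shBrca2 over shControl (horizontal axis), in the reported fit and in each alternative (rows), with a large outlined point where the gene was called. Rgs4 stayed below 0 throughout, between -1.97 and -1.06, while leaving out shControl replicate 2 moved Rgs5 to 2.46 and Cspg4 to 1.08.

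Further genes reported in pericytes moved in both directions. Of 30 such genes, 25 were in the table, and 5 rose and 8 fell in shBrca2 CAFs, with 12 not called. Over all genes tested, 9.04% were called. Of the 13 called in the list, 9 were called in every fit without 1 library, 11 with edgeR and 5 with a replicate block. The median log2 fold change of the 25 was -0.06, near the 0.01 of all genes tested. The summed normalized count of the list was 8900 to 9560 in shControl and 6122 to 6779 in shBrca2. Cd248 alone gave 3723 to 4909 of it in shControl and 1940 to 2504 in shBrca2. Which of the sorted cells made the RNA of these genes was not tested.

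**Figure D3:**
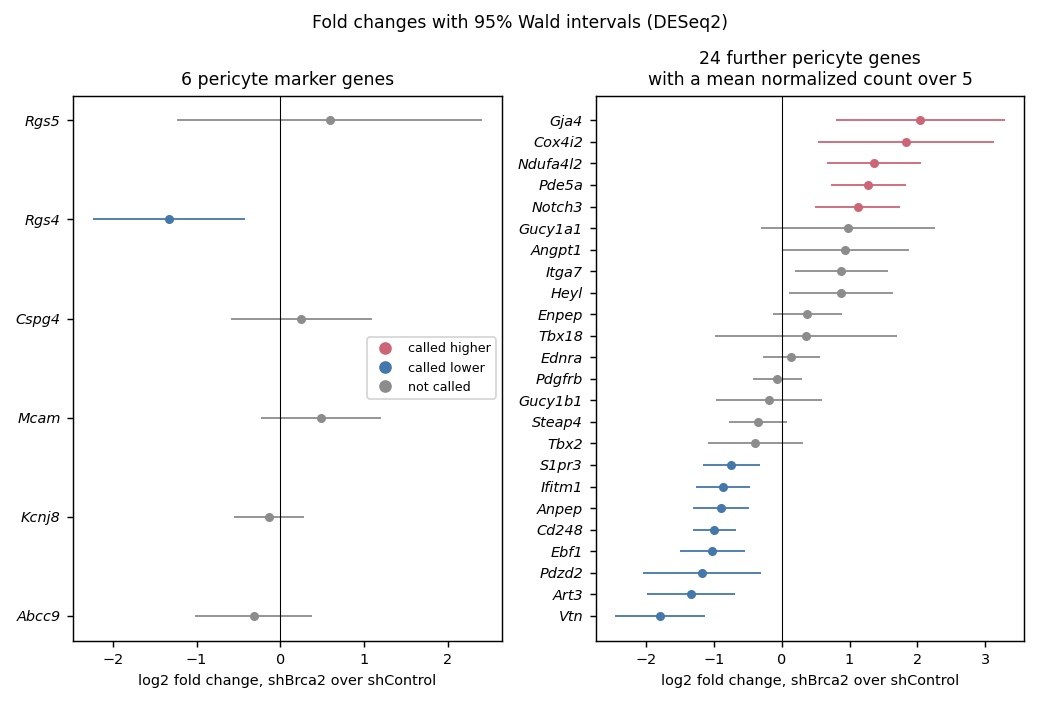
Log2 fold change, shBrca2 over shControl (horizontal axes), with its 95% interval as a bar, for the 6 pericyte marker genes on the left and the 24 further pericyte genes with a mean normalized count over 5 on the right; the vertical line marks no change and colour marks the call. Among the 6, the interval of Rgs4 alone lies clear of 0, from -2.24 to -0.42, and that of Rgs5 is the widest, from -1.23 to 2.41.

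Cd248, endosialin, a receptor of stromal and mural cells, went from 4408 ± 614 normalized counts (SD, n = 3) to 2206 ± 239 (SD, n = 4), and the 95% interval of its log2 fold change was -1.31 to -0.68 (DESeq2 adjusted p = 1.7e-07). Vtn, the adhesive glycoprotein vitronectin, had a log2 fold change of -1.80 with an SE of 0.34 (adjusted p = 1.2e-05). Anpep, the aminopeptidase CD13, had one of -0.89 (SE 0.21, adjusted p = 0.0011), and Ebf1, a transcription factor of mesenchymal and B cells, one of -1.02 (SE 0.25, adjusted p = 0.0013). S1pr3, a receptor for sphingosine-1-phosphate, also fell (-0.74, adjusted p = 0.012), as did Ifitm1, an interferon-induced membrane protein (-0.86, adjusted p = 9.6e-04). Art3, of the ADP-ribosyltransferase family, fell by 1.34 (adjusted p = 0.0017) and Pdzd2, a protein with PDZ domains, by 1.18 (adjusted p = 0.084). The call for Pdzd2 was lost in 7 of 13 alternatives, among them the fits without shControl replicate 1 (log2 fold change -0.67) and without shBrca2 replicate 1 (-0.96), 3 (-1.10) or 4 (-1.30).

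Ndufa4l2, a mitochondrial protein induced by hypoxia and abundant in pericytes, was at 164, 526 and 172 normalized counts in the shControl libraries and at 717, 859, 584 and 769 in the shBrca2 libraries. All shBrca2 libraries exceeded shControl replicate 2, the highest of its group, and the log2 fold change was 1.35 with an SE of 0.35 (DESeq2 adjusted p = 0.0067). It was called in all 13 alternatives, at 2.13 without shControl replicate 2. Pde5a, the phosphodiesterase that degrades cGMP in contractile cells, had a log2 fold change of 1.28 with an SE of 0.28 (adjusted p = 4.0e-04).

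Notch3, the mural cell Notch receptor, rose from 51.5 ± 21.0 (SD, n = 3) to 112 ± 26.5 (SD, n = 4), or 1.12 on the log2 scale (SE 0.32, DESeq2 adjusted p = 0.014). The call was lost without shControl replicate 4 (0.85, adjusted p = 0.14) and with a replicate block (1.08, adjusted p = 0.18). Gja4, a gap junction protein of arteries, had a log2 fold change of 2.05 with an SE of 0.64 (adjusted p = 0.027), from raw counts of 1 to 68. It was lost without shControl replicate 1 (1.49, adjusted p = 0.22) or shBrca2 replicate 2 (1.60, adjusted p = 0.20). Cox4i2, a hypoxia-responsive subunit of cytochrome oxidase, had 0 to 27 raw counts and a log2 fold change of 1.84 (adjusted p = 0.074), which was lost in 7 of 13 alternatives. Without shControl replicate 1, where it had no count, the log2 fold change of Cox4i2 was 1.19, and it was also not called without shControl replicate 4 (1.81) or without shBrca2 replicate 1 (1.70), 2 (1.88) or 4 (1.73).

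Pdgfrb, the receptor through which pericytes are recruited and a gene that CAFs express as well, did not pass the test. It was at 999, 1398 and 1104 normalized counts in the shControl libraries and at 1231, 893, 1130 and 1212 in the shBrca2 libraries. The groups overlapped, although the lowest library was a shBrca2 and the highest a shControl library, and the log2 fold change was -0.06 (95% interval -0.43 to 0.30, DESeq2 adjusted p = 0.92). Its sign turned with total-count scaling, at 0.06.

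Vascular smooth muscle genes were taken as the nearest neighbours of pericytes. Of 20 listed, 15 were in the table, 2 rose, 0 fell and 13 were not called, with a median log2 fold change of 0.34. That is 13.3% called, near the 9.04% of all genes tested. The 2 were Acta2, smooth muscle actin, with a log2 fold change of 1.07 and an SE of 0.32 (DESeq2 adjusted p = 0.018), and Des, the muscle intermediate filament desmin, with 0.86 and 0.28 (adjusted p = 0.046). The call for Acta2 was lost without shControl replicate 4 (0.76) or shBrca2 replicate 4 (0.99), and that for Des without shControl replicate 1 (0.63), shControl replicate 4 (0.71) or shBrca2 replicate 1 (0.76). Acta2 and Des are also made by myofibroblastic CAFs.

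Of 30 genes of pericyte recruitment and vessel stabilization, 25 were in the table. Among them 4 rose (Notch3, Tgfb1, Cdh2 and Vegfa) and 6 fell (Tgfbr2, Acvrl1, Eng, S1pr3, Cxcl12 and Nid1), with a median log2 fold change of -0.05. That is 40.0% called, beside 9.04% of all genes tested. Pdgfrb, Notch3, Angpt1 and S1pr3 stand in this list and in that of further pericyte genes. The fall took in the TGFβ receptor Tgfbr2 (log2 fold change -0.77, SE 0.18, DESeq2 adjusted p = 0.0012), the type I receptor Acvrl1 (-0.85, SE 0.24, adjusted p = 0.011) and the co-receptor Eng (-1.46, SE 0.22, adjusted p = 2.2e-08). The receptor Tgfbr1 of the same list, named here after its values were seen, was not called (-0.13, DESeq2 adjusted p = 0.81). The ligand Tgfb1 rose by 1.08 (SE 0.37, adjusted p = 0.062). Its call was lost with edgeR, without shControl replicate 1 (0.82) or 4 (0.80), and without shBrca2 replicate 2 (1.11) or 4 (0.87). Vegfa, the endothelial growth factor, rose by 0.89 (SE 0.21, adjusted p = 0.0013), and Cdh2, the cadherin that joins pericytes to endothelium, by 1.28 (SE 0.29, adjusted p = 6.8e-04). Cxcl12 fell by 0.88 and Nid1, a basement membrane linker, by 0.71. The call for Cxcl12 was lost without shControl replicate 1 (-0.70) and with a replicate block (-0.83). The call for Nid1 was lost in 7 of 13 alternatives, edgeR among them. It was also lost without shControl replicate 1 (-0.41) or shBrca2 replicate 1 (-0.72), 3 (-0.60) or 4 (-0.67).

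The labelled cell type was checked against its markers. All 10 fibroblast genes were present, with summed normalized counts of 132500 to 148900 in shControl and 100900 to 123500 in shBrca2, and Dcn, Lum and Dpt fell. That is 30.0% called, beside 9.04% of all genes tested. The other 7 were not called. Besides Pdpn, and named after their values were seen, these were Col1a1 (-0.04), Col1a2 (-0.09), Col3a1 (-0.44), Pdgfra (0.01), Fap (0.05) and Thy1 (-0.09). Col3a1 and Col1a2 had the highest means of the list, 46650 and 37470. The call for Dcn, at -0.77 on the log2 scale, was lost in 7 of 13 alternatives, among them edgeR and the fits without shControl replicate 1 (-0.63) or 4 (-0.56) or shBrca2 replicate 1 (-0.69) or 4 (-0.68). That for Lum was lost without shControl replicate 1 (-0.94, adjusted p = 0.11). With a replicate block, Lum (adjusted p = 0.50) and Dpt (adjusted p = 0.12) were not called by DESeq2. The sort marker Pdpn was at 640 ± 36.6 (SD, n = 3) and 539 ± 57.3 (SD, n = 4), and its log2 fold change was -0.25 (95% interval -0.55 to 0.05, DESeq2 adjusted p = 0.42). Of the endothelial list 11 of 17 genes were in the table, and Cdh5 was not analysed here. Their sum was 194 to 331 in shControl and 280 to 385 in shBrca2, Flt1 rose (1.23, adjusted p = 0.012), and no other was called by DESeq2. That is 9.09% called, near the 9.04% of all genes tested. The call for Flt1 was lost without shBrca2 replicate 1 (0.96, adjusted p = 0.15) and with a replicate block (1.19, adjusted p = 0.14). With edgeR, Tek was also called, as lower; it is named here after its values were seen, and in DESeq2 its log2 fold change was -1.55 (adjusted p = 0.12).

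Pecam1, which encodes the gated CD31, had raw counts of 6, 14 and 2 in the shControl libraries and of 2, 1, 0 and 0 in the shBrca2 libraries. Its highest library, shControl replicate 2, was also the highest for Rgs5, Cspg4 and, within shControl, Mcam. The sum of the endothelial list did not peak there. It was 235 in that library, against 194 in shControl replicate 1, 331 in shControl replicate 4 and 280 to 385 in shBrca2. For Pecam1 the DESeq2 adjusted p was 0.031, but the mean of 3.87 was under the minimum and it was not called. Ptprb, an endothelial phosphatase named here after its values were seen, went the other way, with raw counts of 0, 1 and 0 in the shControl libraries and of 12, 6, 5 and 9 in the shBrca2 libraries (DESeq2 adjusted p = 0.0062). Its mean of 4.70 was also under the minimum. The part of endothelial RNA in the values of Mcam and Cspg4 was not tested.

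Markers of other cell types also moved with the groups. Of the epithelial and cancer cell list 9 of 12 genes were in the table and 5 rose (Krt8, Krt18, Krt7, Krt19 and Sox9). Sums of the 9 were 468 to 1209 in shControl and 1622 to 2163 in shBrca2. Krt19, also in the mesothelial list, had the highest mean of the 9 at 465, then Krt18 at 434 and Krt8 at 287. The 4 not called, named here after their values were seen, were Muc1 (0.01), Cdh1 (1.59), Krt20 (2.12) and Cldn7 (0.58). Cldn7 had a mean of 2.08, under the minimum. The call for Krt19 was lost in 6 of 13 alternatives, among them edgeR and the fits without shControl replicate 1 (0.61) or 2 (0.93) or shBrca2 replicate 1 (1.01), 3 (0.90) or 4 (0.95). Krt7 was not called without shControl replicate 1 (0.74) or shBrca2 replicate 1 (0.99), nor Sox9 without shControl replicate 4 (0.85). Immune genes, 5 of 12 in the table, summed to 309 to 368 in shControl and 520 to 601 in shBrca2. Csf1r and Cd14 rose, the latter not without shControl replicate 1 (0.81, adjusted p = 0.15). The other 3, named here after their values were seen, were not called. These were Cd68 (-0.32), Lyz2 (-0.26) and S100a8 (2.58, with a mean of 4.89, under the minimum). Of the mesothelial list 9 of 10 were present, and Krt19 and Cdh3 rose, with sums of 1303 to 4283 in shControl and 2910 to 3746 in shBrca2. Of the genes present, 55.6% of the epithelial list, 40.0% of the immune and 22.2% of the mesothelial were called, beside 9.04% of all genes tested. Schwann and glial genes, another source of Cspg4, had 5 of 11 in the table and none was called by DESeq2 or edgeR (1 had an unadjusted p under 0.05 in DESeq2), with sums of 79.7 to 148 in shControl and 110 to 143 in shBrca2. The part of these cells in the pericyte marker values was not tested.

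**Figure D4:**
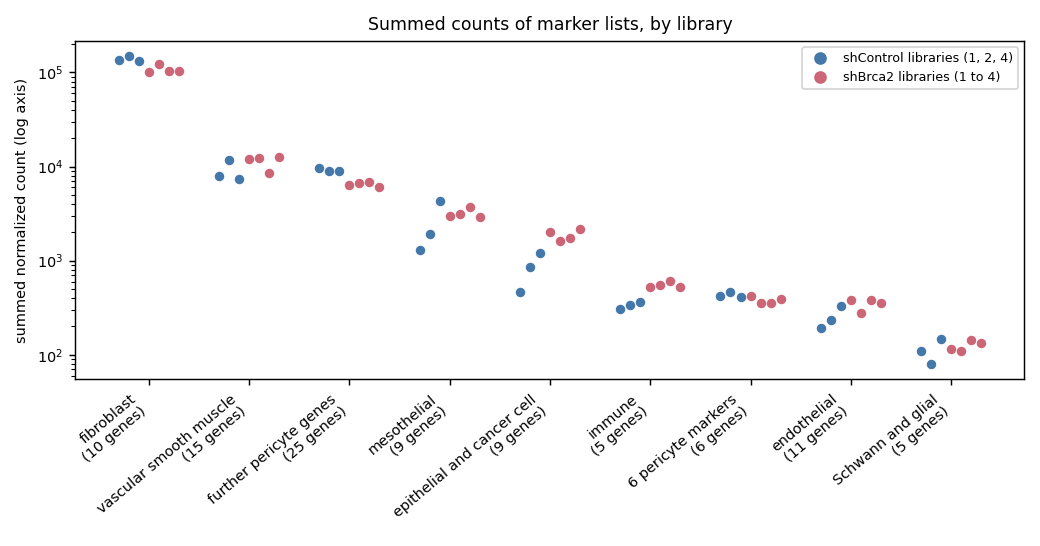
Summed normalized counts of each gene list per library (vertical axis, log scale) for pericyte markers, further pericyte genes, smooth muscle and the other cell types; each point is 1 of 3 shControl or 4 shBrca2 libraries. The sums of the 6 pericyte marker genes overlapped between the groups, at 412 to 463 in shControl and 354 to 418 in shBrca2. Those of the further pericyte genes did not, and Cd248 alone gave 3723 to 4909 of them in shControl and 1940 to 2504 in shBrca2. The fibroblast, epithelial and immune sums did not overlap either.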

How the data were processed

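CAFs (PDPN+ cells lacking EpCAM, CD31 and CD45) were profiled by a variant of MARS-seq, which reads 3' ends, in 3 shControl and 4 shBrca2 libraries grouped by the Brca2 status in the labels. The authors deposited 1 table of raw counts per gene symbol. The submitters' processing notes name bcl2fastq, cutadapt, STAR 2.4.2a, HTSeq, DESeq2 and mm10. Annotation, strand setting and collapsing of molecular barcodes were not given in the sources used here, so counts may include PCR copies and intervals from them cover counting error only.

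The whole table was fitted with the study's design, the DESeq2 1.42.0 likelihood ratio test of the group term (R 4.3.3) with median-of-ratios size factors and no covariate. Called genes had a Benjamini-Hochberg adjusted p under 0.1 over all genes, an absolute log2 fold change over 0.5 and a mean normalized count over 5. Fold changes were not shrunken, and 95% intervals are Wald intervals. Alternatives were TMM (edgeR 4.0.16) and total-count size factors, edgeR's quasi-likelihood test, the DESeq2 Wald test, a filter of 10 counts in 3 libraries, a replicate block, and leaving out each library. Total counts ran from 1898679 to 5990579. No pair of replicates agreed within sampling noise (lowest chi-square per gene 3.35).

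The members and lists were chosen with earlier results of these data known. Named genes were the members, genes of the other lists that were called, Pdgfrb, Acta2, Pecam1, Cdh5 and Pdpn, and the 3 genes with a mean over 50 that followed each member (mean over 20) most closely by Pearson r. Promoter letters were searched on both strands. Positions and promoters were matched by symbol to RefSeq on GRCm38.p6, found for all 6 members in the table. The code was tested on simulated data.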

Additional observations from a re-analysis of the deposited data

Results flagged for a closer look

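In groups of 4 libraries, 48 genes (the 6 members and the genes named from the other lists) were checked for a library standing far from the others, and 2 were picked out, where chance picks about 1 in 20 groups. In both, the library was shBrca2 replicate 2, the deepest. Notch3 was at 72.3 normalized counts there, against 122 to 128 in the other shBrca2 libraries and at most 72.1 in shControl. Vtn was at 225 there, against 82.3 to 104 in the other shBrca2 libraries and 335 to 540 in shControl. Each value lay on the shControl side of its group. None of the pericyte marker genes was picked out. The shControl group has 3 libraries and was not checked in this way.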

How the results depend on the processing

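Of the members, 1 was called lower and 0 higher; edgeR's quasi-likelihood test and the replicate block gave 0 lower, and leaving out a library gave 0 to 1 lower and 0 to 1 higher. Rgs4 was at -1.25 with edgeR (adjusted p = 0.11), -1.18 under the replicate block (0.14), and -1.97 to -1.06 without 1 library. Cspg4 was 1.08 and called without shControl replicate 2 and reversed to -0.11 without shControl replicate 1; Kcnj8 reversed to 0.06 without shControl replicate 4 and ranged from -0.31. Deviations of libraries with the same replicate number correlated at -0.18 to -0.13, and those with different numbers at -0.21 to 0.29. So few pairs cannot decide whether the numbers pair the libraries. Over all genes, 481 were called higher and 673 lower, against 211 and 280 under the block, and 261 to 610 and 354 to 695 without 1 library. Total-count size factors moved the median log2 fold change of genes with a mean over 5 from 0.00 to 0.12 and gave 708 higher and 502 lower. In the other lists together 19 genes rose and 16 fell, with 6 falling under the block, and 13 to 26 and 11 to 18 without 1 library. Signs also turned for Pdgfrb (0.06 with total counts, 0.03 without shBrca2 replicate 2, -0.17 to 0.08 without 1 library), Higd1a (-0.03 without shControl replicate 4, -0.04 without shBrca2 replicate 2, up to 0.15) and Higd2a (-0.00 without shBrca2 replicate 2, up to 0.21). The causes were not tested. Rgs5 has no value under the low-count filter. Mcam and Abcc9 kept direction and stayed uncalled in all 13 alternatives.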
